A study of Mus musculus with 2 samples.

Results

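The type I interferon-stimulated genes described here are 39 genes chosen by symbol: the interferon receptor chains, the regulatory factors that carry the signal, the nucleic acid sensors, the antiviral effector proteins and the interferon-induced chemokines. All 39 were found among the 34745 genes of the count table, and 37 of them were measured, meaning that they had a level of at least 1 CPM in either library. The other two, Mx2 and Cxcl11, lay under that level in both. CPM is a gene's count scaled to a fixed library total, here after a trimmed mean of M values (TMM) correction of that total. In all, 15240 genes were measured.

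The study compared ear skin from a mouse group labelled WT with ear skin from a group labelled KAT8 cKO, a conditional knockout of the histone acetyltransferase KAT8. Ears of both groups had received 30 mg of 5% imiquimod (IMQ) cream each day for 3 days and were taken on day 4, so both are treated skin and neither gives an untreated level. There was 1 library per genotype. The sources used here do not name the promoter or cell type that drives the knockout, nor the strain, age, sex and number of animals behind each library.

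Type I interferons signal through a receptor of 2 chains, IFNAR1 and IFNAR2, to the kinases JAK1 and TYK2, which activate STAT proteins. With IRF9 these form a factor that binds the interferon-stimulated response element (ISRE) in the promoters of a large set of genes. Imiquimod activates TLR7, a sensor of single-stranded RNA in endosomes that can induce type I interferon through IRF7, above all in plasmacytoid dendritic cells. Interferon gamma acts through another receptor and a different element, GAS, and induces an overlapping set of genes.

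The response element is shown first. Its sequence was not used to choose the members. They were chosen as interferon-stimulated genes, however, so a raised share of the element among them is not an independent result. A core of the ISRE, GAAA followed by any 2 bases and a further GAAA, was searched on both strands in the 300 bases from 250 before to 50 after each gene start (RefSeq promoters, GRCm38.p6). Of the 39 members 28 matched an entry, and 12 of these (42.9%) held the core, beside 3.99% of all 27025 genes with an entry and 3.43% of all promoters. The GAS pattern TTCNNNGAA, which reads the same on both strands, was in 8 of 28 (28.6%), beside 9.55% of all genes and 8.29% of all promoters. ISRE and GAS matches overlapped in Bst2 and Ifitm3. Ifi27l2a, Zbp1, Ifi204, Oas2, Rtp4, Parp14, Dhx58, Usp18, Cxcl11, Mx2 and Mx1 had no entry. Shown here are promoters from each kind of result below: genes with ratios close to 1 (Isg15, Ifit1), genes with lower levels in the KAT8 cKO-labelled library (Ifit3, Rsad2, Oas3, Cxcl10) and genes with higher levels there (Bst2, Ifitm3). Each reads from 5′ to 3′ along the gene, and capitals mark the ISRE core or its reverse complement.
Isg15 (chr4:156200850-156200921, minus strand): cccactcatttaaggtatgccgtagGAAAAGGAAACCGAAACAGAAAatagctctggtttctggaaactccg
Ifit1 (chr19:34640760-34640838, plus strand): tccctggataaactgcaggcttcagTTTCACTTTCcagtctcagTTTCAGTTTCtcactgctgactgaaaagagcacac
Ifit3 (chr19:34583348-34583441, plus strand): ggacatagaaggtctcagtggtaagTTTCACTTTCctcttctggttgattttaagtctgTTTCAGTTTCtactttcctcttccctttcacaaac
Rsad2 (chr12:26456538-26456597, minus strand): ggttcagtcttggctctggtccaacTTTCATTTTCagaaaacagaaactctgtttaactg
Oas3 (chr5:120777700-120777759, minus strand): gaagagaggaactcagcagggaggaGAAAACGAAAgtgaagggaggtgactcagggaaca
Cxcl10 (chr5:92349068-92349127, minus strand): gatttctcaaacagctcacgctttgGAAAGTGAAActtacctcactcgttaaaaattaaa
Bst2 (chr8:71537562-71537627, minus strand): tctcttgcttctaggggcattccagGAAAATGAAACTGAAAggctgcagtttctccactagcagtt
Ifitm3 (chr7:141010716-141010742, minus strand): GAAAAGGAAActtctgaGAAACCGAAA

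In Isg15 the 3 matches overlapped in a single run that began 78 bases before the start. Ifit1 and Ifit3 each held 2 separate matches, and in Ifitm3 both matches lay after the start. Members with an ISRE match had log2 ratios from -1.49 to 0.71 (median -0.17, 12 genes), and those with an entry and no match from -2.43 to 0.50 (median -0.44, 16 genes). At least 2-fold lower were 1 of the 12 and 3 of the 16, beside 8.63% of all measured genes. Members with a GAS match had log2 ratios from -0.58 to 0.71 (median 0.08, 8 genes, 0 at least 2-fold lower), and those without one from -2.43 to 0.43 (median -0.69, 20 genes, 4 at least 2-fold lower). For both motifs the ranges with and without a match overlapped, and the differences were not tested. A match describes the letters in this window and not binding.

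Before the members, the libraries were checked against their labels. Kat8 had 219 counts in the WT-labelled library and 351 in the KAT8 cKO-labelled library (19.0 and 24.2 CPM), so the targeted gene was not lower where the label says it was deleted, and the libraries are named by their labels throughout. The libraries held 12179608 and 13727524 counts, which makes 1 count worth 0.0868 and 0.0689 CPM. Keratinocyte markers summed to 33741.5 and 32205.1 CPM, with Krt14 at 145005 and 175086 counts; Krt14 is a keratin of basal epidermis, and 3 of 12 keratinocyte markers were at least 2-fold lower in the KAT8 cKO-labelled library. Sex-linked transcripts differed, with Xist at 11891 and 6 counts and Eif2s3y at 0 and 838. This is the pattern of female tissue in the WT-labelled library and of male tissue in the KAT8 cKO-labelled library. Skeletal muscle markers (8 of 8 at least 2-fold lower, 13460.3 and 2586.56 CPM in sum), adipocyte markers (6 of 7, 2652.37 and 190.73 CPM) and red cell markers (5 of 5, 171 and 9.03 CPM) were lower in the KAT8 cKO-labelled library. Fibroblast markers summed to 3479.84 and 4463.13 CPM and endothelial markers to 249 and 193 CPM. The part of these differences in the results below was not tested.

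The interferon-stimulated genes did not move as 1 block. In the KAT8 cKO-labelled library, 5 of the 37 measured genes were at least 2-fold lower (Samd9l, Ifi27l2a, Cxcl9, Cxcl10 and Sp100) and none was at least 2-fold higher. Isg15, Ifit1, Mx1, Usp18 and Irf7 had ratios from 0.944 to 1.15, with intervals that included 1. Rsad2, Ifit3, Oas3 and Oasl2 had ratios from 0.469 to 0.554, with intervals below 1. The best-expressed member, Ifitm3, was 1.64-fold higher in the KAT8 cKO-labelled library, within the 2-fold limit. With 1 library per genotype no test was possible and the spread between animals is unknown, so these statements describe 2 libraries.

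A gene counted as lower or higher if its log2 ratio, log2 of (KAT8 cKO CPM + 1) over (WT CPM + 1), was at least 1 in size. The 5 lower members were 13.5% of those measured, beside 8.63% of all measured genes that were 2-fold lower and 4.56% that were 2-fold higher. At 1.5-fold the members were 14 lower (37.8%) and 1 higher, beside 17.2% and 12.9% of all measured genes. On the plain ratio of CPM, without the added 1, 9 members were 2-fold or more lower and 0 higher, beside 11.6% and 6.89% of all genes. The 4 that joined were Oas3, Oasl2, Herc6 and Rsad2. The median log2 ratio of the members was -0.29, with quartiles of -0.88 and 0.02, beside a median of 0.01 over all measured genes with quartiles of -0.38 and 0.33. Of the 37 genes 27 (73.0%) had a log2 ratio below 0, as had 49.4% of all measured genes.

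**Figure D1:**
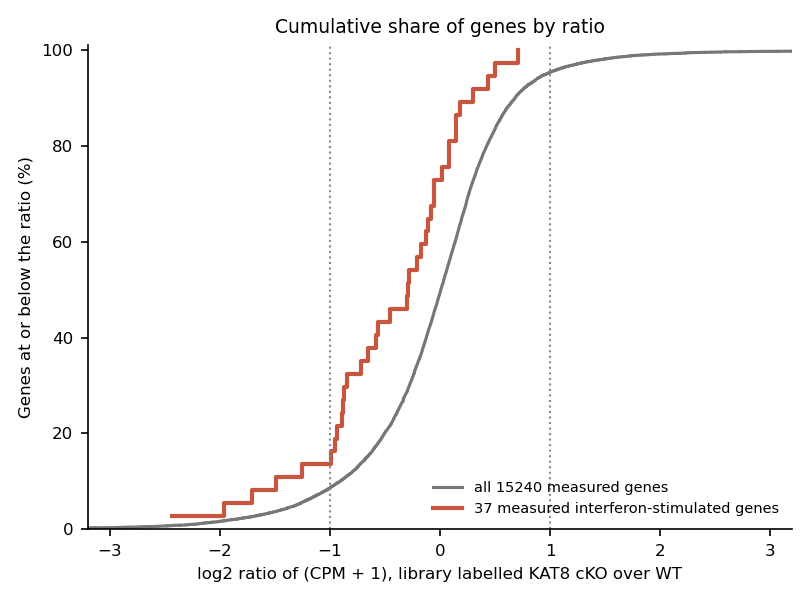
Cumulative share of genes (y axis, percent) at or below each log2 ratio of CPM + 1 (x axis, KAT8 cKO-labelled over WT-labelled library) for the 37 measured interferon-stimulated genes and for all 15240 measured genes; dotted lines mark a 2-fold difference. The curve of the interferon-stimulated genes lies to the left over most of its range, with medians of -0.29 and 0.01, and ends at 0.71, short of the upper line.

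Ratios and folds below divide the CPM values directly, and each 95% interval is an exact Clopper-Pearson interval that covers counting error only. The interval lay below 1 for 18 of the 37 measured members, above 1 for 3 and included 1 for 16. At this depth counting error alone is small for many genes: over all measured genes the interval lay below 1 for 31.9% and above 1 for 32.1%.

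**Figure D2:**
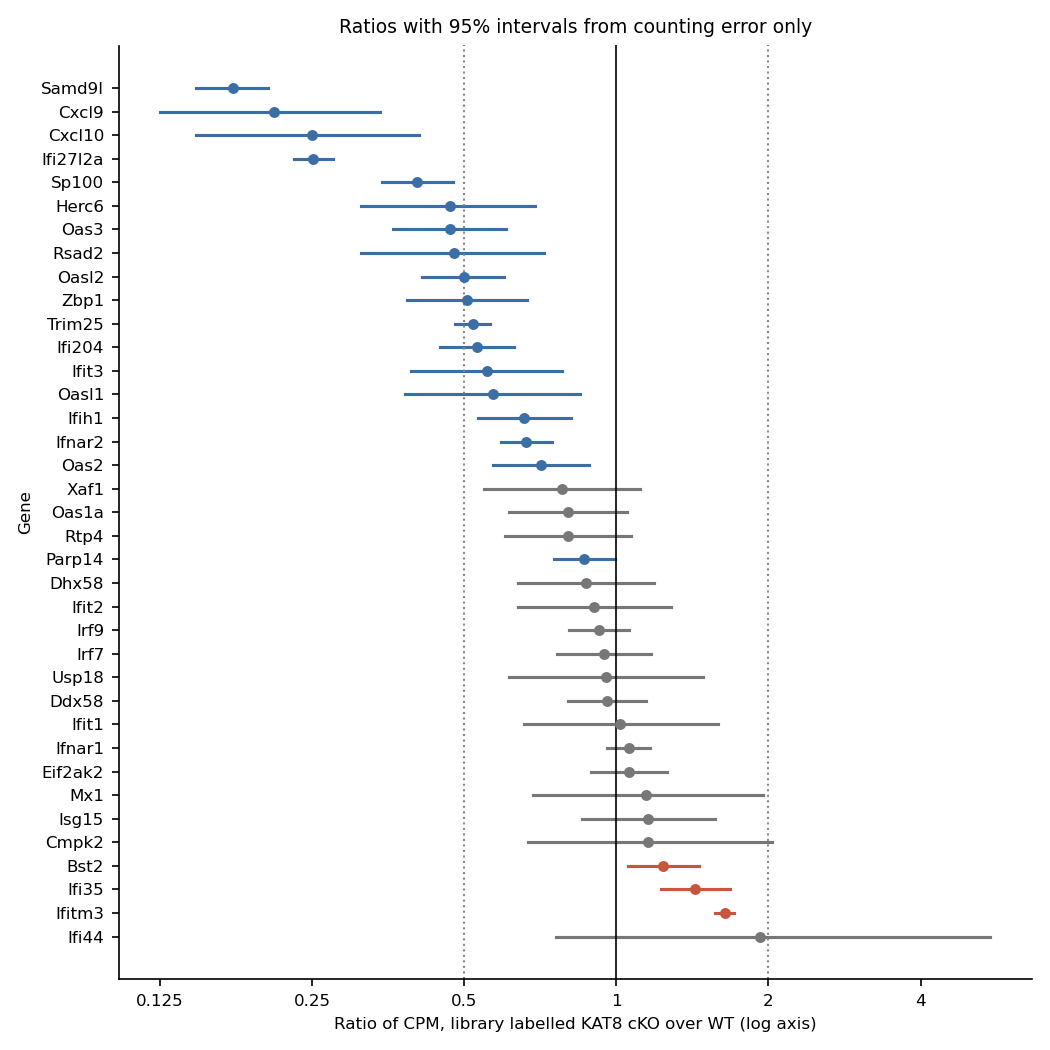
Ratio of CPM (x axis, log scale, KAT8 cKO-labelled over WT-labelled library) for the 37 measured members (y axis), with lines for the 95% interval from counting error only; blue intervals lie below 1, red above 1 and grey include 1, and dotted lines mark 2-fold. Samd9l, Cxcl9, Cxcl10, Ifi27l2a and Sp100 have whole intervals beyond the lower line, and no interval lies wholly beyond the upper one.

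The receptor chains differed from each other. Ifnar1 had 711 counts in the WT-labelled library and 947 in the KAT8 cKO-labelled library (61.7 and 65.3 CPM, ratio 1.06, interval 0.958 to 1.17). Ifnar2, which overlaps exons of another gene over 9.46% of its exon length, had 654 and 547 counts (56.8 and 37.7 CPM, ratio 0.664, interval 0.592 to 0.745). The genes lie on chromosome 16, 79.6 kb apart. Neither was 2-fold different.

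Both interferon regulatory factors among the members had ratios close to 1. Irf9, the DNA-binding subunit of the factor at the ISRE, had 400 and 466 counts (34.7 and 32.1 CPM, ratio 0.925, interval 0.807 to 1.06). Irf7, which is induced by interferon and drives further interferon genes, had 164 and 195 counts (14.2 and 13.4 CPM, ratio 0.944, interval 0.763 to 1.17). The log2 ratios of both, -0.11 and -0.08, turned positive with plain library totals, as did those of Ddx58, Ifit2 and Usp18.

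The 5 sensors all had log2 ratios below 0, from -0.88 to -0.06, and none reached 2-fold. The sensor of Z-form nucleic acids Zbp1 had 141 and 90 counts (12.2 and 6.20 CPM, ratio 0.507, interval 0.385 to 0.665). The HIN-200 DNA sensor gene Ifi204 had 353 and 236 counts (30.6 and 16.3 CPM, ratio 0.531, interval 0.448 to 0.628). Among the RIG-I-like receptors, cytosolic sensors of double-stranded RNA, the ratio was smallest for Ifih1, which encodes MDA5. Ifih1 had 198 and 164 counts (ratio 0.658, interval 0.531 to 0.813), while Ddx58, which encodes RIG-I, had 236 and 285 (ratio 0.959, interval 0.804 to 1.14) and Dhx58, which encodes the regulator LGP2, 83 and 91 (ratio 0.870, interval 0.639 to 1.19). The interval of Ifih1 overlapped those of Ddx58 and Dhx58.

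The IFIT proteins bind foreign RNA ends, and their genes lie side by side on chromosome 19 (Ifit2 from 34550694 to 34576419, Ifit3 from 34583531 to 34588731, Ifit1 from 34640871 to 34650009, plus strand, GRCm38). Ifit1 had 39 and 50 counts (3.39 and 3.45 CPM, ratio 1.02, interval 0.656 to 1.59), and Ifit2 had 65 and 74 (5.64 and 5.10 CPM, ratio 0.904, interval 0.639 to 1.28). Ifit3 had 86 and 60 counts (7.46 and 4.13 CPM, ratio 0.554, interval 0.391 to 0.779). Only the interval of Ifit3 among these 3 lay below 1. Reads of Ifit3 may be split with its close copy Ifit3b, and the pair together had 98 and 73 counts (ratio 0.591, interval 0.431 to 0.809).

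The Mx GTPases, which block viral nucleocapsids, were barely expressed. Mx1 had 27 and 39 counts (2.34 and 2.69 CPM, ratio 1.15, interval 0.684 to 1.95), and Mx2 had 10 and 14 counts (0.868 and 0.965 CPM). Many laboratory strains carry defective alleles of both genes, and the sources used here do not name the strain.

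Of the OAS genes, whose enzymes make the oligoadenylates that activate RNase L, and the related OASL genes, 5 were members. All 5 had log2 ratios below 0, and their summed level went from 71.6 to 42.0 CPM. Outside the members, Oas1c had 38 and 100 counts (ratio 2.09, interval 1.42 to 3.12). Oas1b and Oas1g had ratios of 1.40 and 1.14, with intervals that included 1. Oas3 (chromosome 5 from 120753098 to 120777661) had 166 and 98 counts (14.4 and 6.75 CPM, 2.13-fold lower, interval 1.65 to 2.77), with a log2 ratio of -0.99 just inside the limit. Oasl2 had 301 and 189 counts (26.1 and 13.0 CPM, 2.01-fold lower, interval 1.67 to 2.42). Oasl1 had 64 and 46 counts (ratio 0.571, interval 0.382 to 0.847), and its neighbour 11.0 kb away is Oasl2. Oas2 had 181 and 162 counts (15.7 and 11.2 CPM, ratio 0.711, interval 0.571 to 0.883). Oas1a had 113 and 114 counts (9.81 and 7.86 CPM, ratio 0.801, interval 0.612 to 1.05), and with its close copy Oas1g 145 and 160 (ratio 0.876, interval 0.695 to 1.10). Within the Oas cluster the intervals of Oas3 and Oas1a did not overlap, while that of Oas2 overlapped both.

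ISG15, a ubiquitin-like protein, and the proteins around it split. Isg15 (chromosome 4 from 156199424 to 156200818) had 77 and 112 counts (6.68 and 7.72 CPM, ratio 1.15, interval 0.856 to 1.56). Usp18, the protease that removes ISG15 and restrains the receptor, had 40 and 48 counts (3.47 and 3.31 CPM, ratio 0.953, interval 0.613 to 1.49). Both intervals include 1. Herc6, the ISG15 ligase of the mouse, had 73 and 43 counts (6.34 and 2.96 CPM, ratio 0.468, interval 0.313 to 0.691). Trim25, a ubiquitin ligase of the RIG-I pathway, was the most abundant of this group with 1552 and 1017 counts (135 and 70.1 CPM, ratio 0.520, interval 0.480 to 0.563). Herc6 shares 13.7% of its exon length with another gene.

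The antiviral effectors held both the lowest and the highest log2 ratio of all members. Samd9l (ENSMUSG00000047735, chromosome 6 from 3372257 to 3399572, minus strand), a growth-restricting antiviral protein gene, had 844 counts in the WT-labelled library and 185 in the KAT8 cKO-labelled library (73.3 and 12.7 CPM, 5.75-fold lower, interval 4.90 to 6.78). Only 0.728% of all measured genes had a lower log2 ratio than its -2.43. Ifitm3 (ENSMUSG00000025492, chromosome 7 from 141009586 to 141010770, minus strand), a membrane protein gene that blocks viral fusion, had 3047 and 6288 counts (264 and 433 CPM, ratio 1.64, interval 1.57 to 1.71). Its log2 ratio was 0.71, and 90.8% of measured genes had a lower one.

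Other effectors lay between. Bst2, which encodes tetherin, a protein that holds budding virus on the cell, had 253 and 395 counts (22.0 and 27.2 CPM, ratio 1.24, interval 1.06 to 1.46). Eif2ak2, which encodes the kinase PKR, had 236 and 315 (20.5 and 21.7 CPM, ratio 1.06, interval 0.892 to 1.26). Rsad2, which encodes viperin, and the nucleotide kinase gene Cmpk2 are neighbours on chromosome 12 that start in opposite directions 12.8 kb apart. Rsad2 had 65 and 39 counts (5.64 and 2.69 CPM, 2.10-fold lower, interval 1.39 to 3.21), and Cmpk2 24 and 35 (2.08 and 2.41 CPM, ratio 1.16, interval 0.669 to 2.03). Their ratios lay on opposite sides of 1, but the interval of Rsad2, 0.312 to 0.719, overlapped that of Cmpk2.

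Of the remaining intracellular proteins, Ifi27l2a and Sp100 were lower. Ifi27l2a (ENSMUSG00000079017, chromosome 12 from 103442167 to 103443680, minus strand), a small membrane protein gene strongly induced by interferon, had 2114 and 670 counts (183 and 46.2 CPM, 3.97-fold lower, interval 3.64 to 4.34). Its copy Ifi27l2b was at 0 counts in both libraries. Sp100 (ENSMUSG00000026222, chromosome 1 from 85649988 to 85709998, plus strand), a protein of nuclear bodies, had 456 and 232 counts (39.6 and 16.0 CPM, 2.48-fold lower, interval 2.11 to 2.91).

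The other genes of this group did not reach 2-fold. The ADP-ribosyltransferase gene Parp14 had 398 and 433 counts (34.5 and 29.8 CPM, ratio 0.864, interval 0.752 to 0.992). The receptor chaperone gene Rtp4 had 99 and 100 (ratio 0.802, interval 0.601 to 1.07) and Xaf1, which encodes an antagonist of the apoptosis inhibitor XIAP, 67 and 66 (ratio 0.782, interval 0.548 to 1.12). Ifi35 went the other way with 248 and 448 counts (21.5 and 30.9 CPM, ratio 1.43, interval 1.23 to 1.68), and 16.8% of its exon length overlaps another gene. Ifi44 had 7 and 17 counts (0.608 and 1.17 CPM, ratio 1.93, interval 0.760 to 5.50), too few to place its ratio on either side of 1.

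The chemokines CXCL9, CXCL10 and CXCL11 attract T and natural killer cells through the receptor CXCR3, and their genes lie together on chromosome 5. Cxcl9 (ENSMUSG00000029417, from 92321347 to 92328079, minus strand) had 83 and 22 counts (7.20 and 1.52 CPM, 4.75-fold lower, interval 2.94 to 7.99). Cxcl10 (ENSMUSG00000034855, from 92346638 to 92348889, minus strand) had 70 and 22 counts (6.08 and 1.52 CPM, 4.01-fold lower, interval 2.45 to 6.80). Cxcl11 was at 1 and 2 counts. The 3 genes together had 154 and 46 counts (4.22-fold lower). T and natural killer cell markers were not lower in the same library: 7 of the 14 measured ones were 2-fold or more higher and none lower (25.3 and 54.8 CPM in sum, none at 0 counts), and Cxcr3 itself had 13 and 9 counts.

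**Figure D3:**
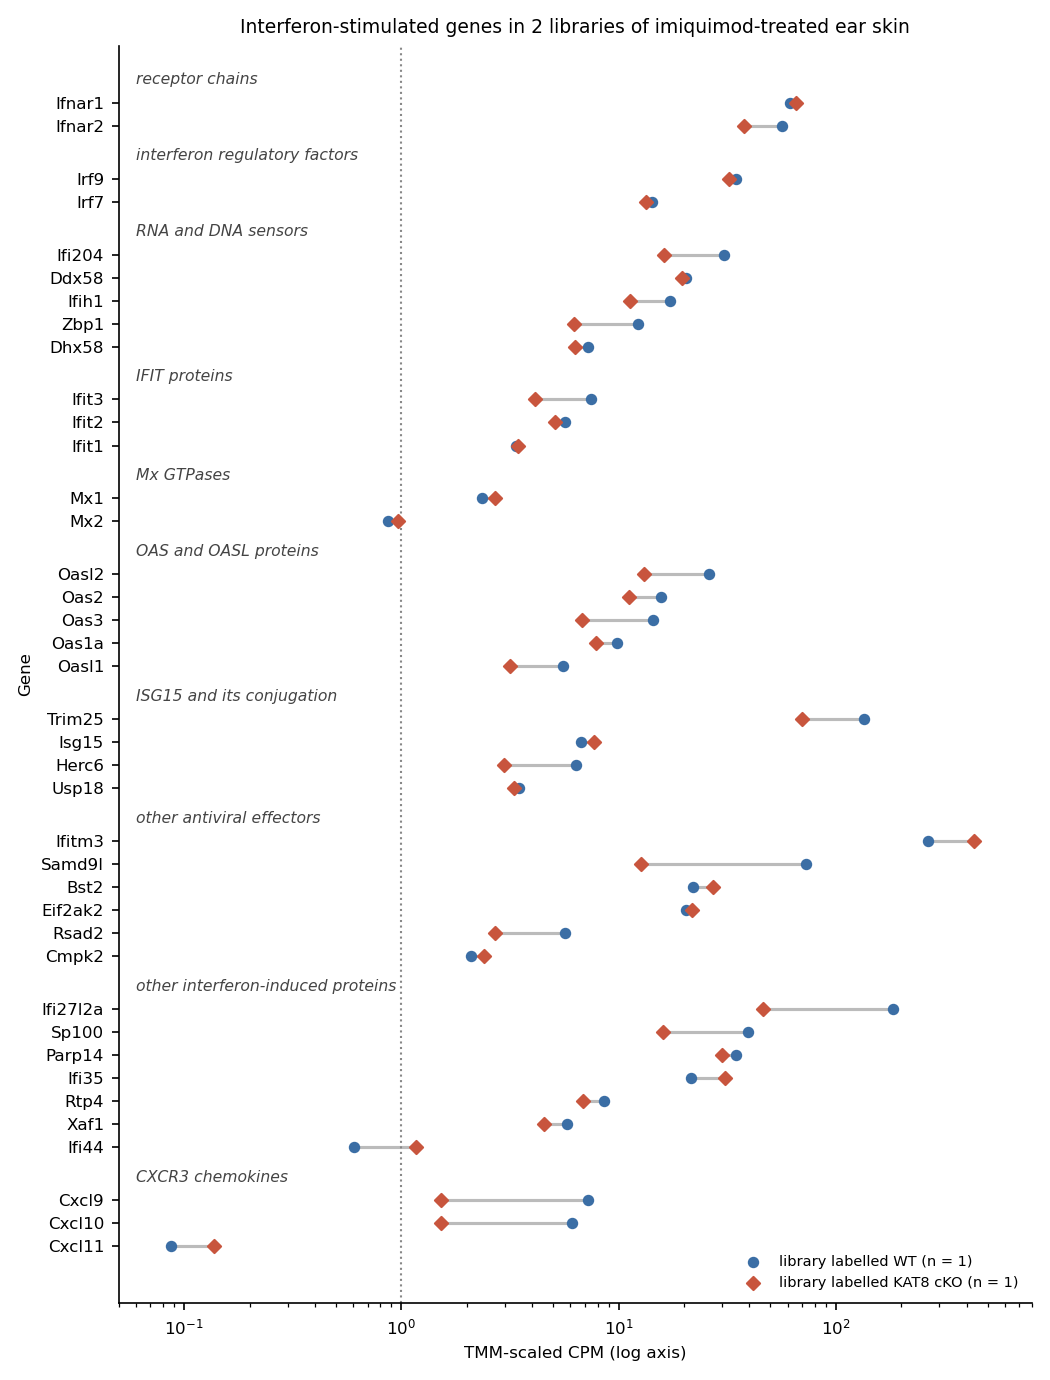
Level of each of the 39 genes (y axis, grouped by role) as TMM-scaled CPM (x axis, log scale) in the WT-labelled library (circles) and the KAT8 cKO-labelled library (diamonds), 1 library each; the dotted line marks 1 CPM. Levels run from 0.0868 CPM for Cxcl11 to 433 CPM for Ifitm3, and the longest lines join the points of Samd9l, Cxcl9, Ifi27l2a and Cxcl10.

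Levels of different genes were compared per kilobase of merged exons (CPM per kb). Ifi27l2a was highest in the WT-labelled library at 396 CPM per kb, just above Ifitm3 at 390, and Bst2 (24.3), Trim25 (23.4) and Ifnar2 (17.1) followed. In the KAT8 cKO-labelled library Ifitm3 was highest at 639, Ifi27l2a second at 99.7, and Bst2 (30.1), Ifi35 (17.9) and Trim25 (12.2) followed. Samd9l went from rank 6 (13.5 CPM per kb) to rank 19 (2.35). At the other end Cxcl11, Ifi44 and Mx2 took the last 3 places in both libraries. A few genes therefore carried most of the summed signal: the 5 most abundant members held 60.2% of the members' summed CPM in the WT-labelled library and 66.0% in the other. The sum over all 39 genes was 1193 and 989 CPM (1.21-fold lower), and without Ifitm3 it was 929 and 556 CPM (1.67-fold lower). Without Ifitm3 and Ifi27l2a it was 745 and 509.8 CPM (1.46-fold lower). The ratio of the sum thus depended on both of these abundant genes, whose own ratios lay on opposite sides of 1.

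The size of the ratio did not follow the abundance of the gene in a simple way. The 19 measured members of higher mean level (10.6 to 349 CPM) had a median log2 ratio of -0.46, with 14 below 0 and 3 at least 2-fold lower. The 18 of lower mean level (0.889 to 9.22 CPM) had a median of -0.28, with 13 below 0 and 2 at least 2-fold lower. The added 1 CPM draws low genes toward 0. Of all 37 measured members 22 were within 1.5-fold, a smaller share than the 69.9% of all measured genes. A further 14 (37.8%) were 1.5-fold or more lower and 1 higher, beside 17.2% and 12.9% of all measured genes.

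Transcripts of the interferons themselves were almost undetected. Of 20 type I and type III interferon genes, Ifnb1 and the Ifna genes included, 20 were at 0 counts in the WT-labelled library and 19 in the KAT8 cKO-labelled library, where the keratinocyte interferon gene Ifnk had 3 counts. Ifng was at 0 in both. A count of 0 allows up to 3 counts, or 0.260 and 0.207 CPM in the 2 libraries. Differences in interferon genes below that level were not detectable at this depth.

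Along the signalling path, Stat2, which forms the ISRE-binding factor with Irf9, had 327 and 549 counts (ratio 1.33, interval 1.16 to 1.53). The most abundant genes of the JAK-STAT list, Stat3 and the feedback inhibitor gene Socs3, were at log2 ratios of 0.38 and -0.33, and the median of its 11 genes was 0.23, or 0.38 with plain totals. None of the 4 measured genes among the interferon gamma and lambda receptors was 2-fold different, with Ifngr1 and Ifngr2 at 0.44 and -0.21. None of the 7 other IRF genes was 2-fold different, and their log2 ratios lay on both sides of 0. Irf3, which is activated downstream of nucleic acid sensors, was at 0.31 and Irf5 at 0.41. Irf1, an interferon-induced transcription factor gene, was at -0.73 (315 and 233 counts, 1.70-fold lower, interval 1.43 to 2.03) and Irf4 at -0.66.

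Few genes of the sensing steps upstream reached the 2-fold limit. Of 15 TLR7 and endosomal sensing genes 1 was at least 2-fold lower (median -0.11), with the adaptor Myd88 and the chaperone Unc93b1 at -0.05 and -0.14. The lower one was Tlr8, with 122 and 58 counts (2.65-fold, interval 1.92 to 3.69), and Tlr7, the receptor for imiquimod, had 138 and 80 counts (12.0 and 5.51 CPM, 2.17-fold lower, interval 1.64 to 2.90, log2 ratio -0.99). Both genes lie on chromosome X, and the libraries differed in sex-linked transcripts. Irak1, on the same list and also on chromosome X, was at 0.71. The part of the sex-linked difference in these ratios was not tested. None of 8 MAVS and STING adaptor genes reached a log2 ratio of 1 in size (median 0.19), with Tax1bp1 and Adar at -0.22 and 0.14. The ubiquitin ligase gene Rnf125 came closest at -0.97, with 90 and 51 counts, and its plain ratio was 0.450 (interval 0.313 to 0.641), or 2.22-fold lower. Of the 8 genes, 3 had log2 ratios below 0 and 5 above. Among those above were Tmem173, which encodes STING, with 246 and 514 counts (ratio 1.66, interval 1.42 to 1.94), and Mavs (ratio 1.18).

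Other interferon-induced families differed in how far they moved. The GBP and IRG GTPases, which attack vacuoles holding microbes and respond strongly to interferon gamma, had 9 of 16 genes at 2-fold lower or beyond and 0 at 2-fold higher (median -1.16, summed level 265 and 97.4 CPM). Gbp7 had 314 and 42 counts (9.42-fold lower, interval 6.81 to 13.3) and Gbp2 740 and 200 (4.66-fold, interval 3.98 to 5.48). Gbp6 had 122 and 30 counts, and Tgtp1, which may share reads with its copy Tgtp2, had 47 and 3. A further 48 measured interferon-induced genes had 4 lower (8.33%, close to the 8.63% of all measured genes) and 1 higher (median -0.19). Among the lower were Ifitm1 with 7253 and 1768 counts (5.17-fold, interval 4.91 to 5.45), Slfn1 with 611 and 258 and Trim30a with 446 and 207, and the higher one was Ifit1bl1 with 0 and 21 counts. Ifitm1, Ifitm2 and Ifitm3 encode related proteins, and their ratios differed, since Ifitm2 had 4883 and 5179 counts (ratio 0.842) and Ifitm3 a ratio of 1.64.

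Antigen presentation genes did not share the lower levels. None of 13 class I presentation and immunoproteasome genes was 2-fold different (median 0.28, or 0.44 with plain totals), and H2-D1 and H2-K1 were at log2 ratios of -0.11 and 0.28. On a list of 9 measured genes known mainly as interferon gamma targets 4 were higher and 1 lower (median 0.94, or 1.10 with plain totals). The class II activator Ciita, H2-Ab1 and Cd74 were at log2 ratios of 1.56, 1.53 and 1.45, and Nos2 was at -4.16. Class II genes are also markers of dendritic cells, of which 7 of 10 on the list were 2-fold or more higher and none lower (120 and 319.651 CPM in sum, with Xcr1 and Clec9a at 0 in the WT-labelled library).

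**Figure D4:**
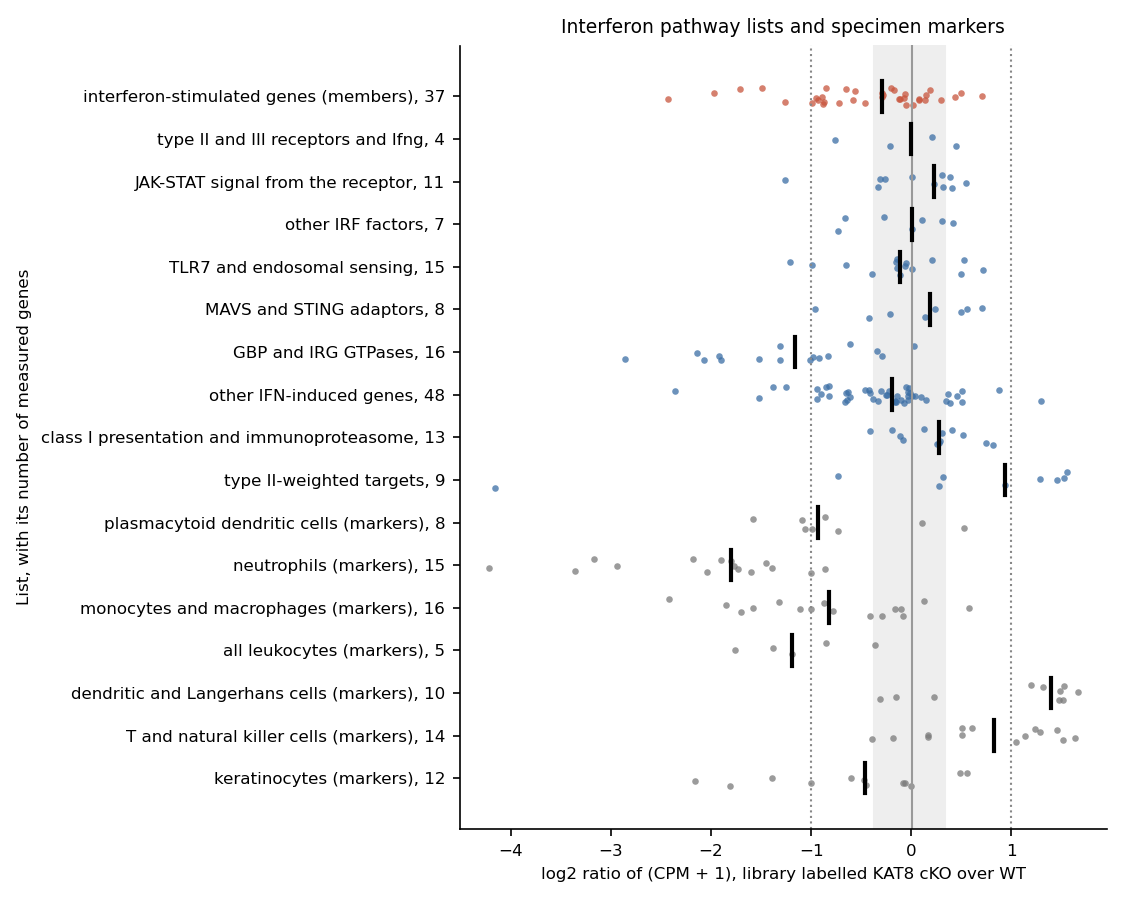
Log2 ratio of CPM + 1 (x axis, KAT8 cKO-labelled over WT-labelled library) of each measured gene on the member list (red), the pathway lists (blue) and the leukocyte and keratinocyte marker lists (grey); black bars are list medians, the shaded band spans the quartiles of all measured genes (-0.38 to 0.33) and dotted lines mark 2-fold. The member median (-0.29) lies inside the band. To its left lie the medians of the GBP and IRG genes (-1.16) and of the neutrophil (-1.80), all-leukocyte (-1.20), plasmacytoid dendritic cell (-0.93), monocyte and macrophage (-0.82) and keratinocyte (-0.46) markers. To its right lie those of the dendritic and Langerhans cell (1.40) and T and natural killer cell (0.83) markers and of the type II-weighted targets (0.94).

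Several lists of leukocyte markers, but not all, were lower in the KAT8 cKO-labelled library as well. T and natural killer cell markers (7 of 14 measured) and dendritic and Langerhans cell markers (7 of 10) were 2-fold or more higher there, with none 2-fold lower. Pan-leukocyte markers were at least 2-fold lower in 3 of 5 cases (1247 and 585 CPM in sum), and Ptprc, which encodes CD45, had 2000 and 1389 counts (1.81-fold lower, interval 1.69 to 1.94). Neutrophil markers were lower in 13 of 15 measured cases (16202.1 and 5761.44 CPM in sum) and monocyte and macrophage markers in 7 of 16 (3384.61 and 1490.35 CPM), with none higher and no marker at 0 on either list. Of the plasmacytoid dendritic cell list 3 of 8 measured were lower (963 and 510 CPM), a sum that is mostly Ly6d and Cox6a2, which keratinocytes and muscle also express. The lower ones were Cox6a2, Tcf4 and Ccr9. Tcf4 had 439 and 258 counts (2.14-fold lower, interval 1.83 to 2.51). Ccr9 had 18 and 3 (7.56-fold lower, interval 2.21 to 40.1). Runx2 had 100 and 70 counts (1.80-fold lower, interval 1.31 to 2.48). Of the 8 measured, 2 had log2 ratios above 0, with intervals that included 1. These were Tlr9 with 18 and 39 counts (ratio 1.72) and Irf8 with 201 and 273 (ratio 1.08). The defining markers Siglech, Spib and Klk1, too low to be measured, were at 0 counts in the WT-labelled library and at 4, 10 and 1 in the other. In bulk tissue, fewer cells of a type and less RNA per cell cannot be told apart. The part of these leukocyte markers in the lower interferon-stimulated genes was not tested. The sex pattern of the libraries cannot be told apart from the genotype label for any ratio given here.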

How the data were processed

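RNA of 2 imiquimod-treated ear skin specimens, 1 library per genotype label, was analysed from the deposited table of raw counts per Ensembl gene, whole numbers without normalization. Poly(A) RNA was sequenced per the labels' protocols; Per the submitters' processing notes HISAT2, StringTie 1.3.0, edgeR and mm10 were used, with no roles stated. The sources used here give neither annotation release nor strand setting, so reads in exons shared between genes cannot be told apart. Symbols, positions and merged exon lengths came from GENCODE M21 (GRCm38) and matched 34267 of 34745 genes.

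Counts were scaled with edgeR 4.0.16 TMM factors (0.946 for WT, 1.06 for KAT8 cKO). Measured genes reached 1 CPM in at least 1 library. The pseudocount was 1 CPM. Intervals and the floor of 3 counts cover counting error only. No test was run and no p-value is given, because there is 1 library per genotype. The calculations were tested on simulated data. Members and lists were chosen with earlier results of these data known. Every member is named; of each pathway list, up to 4 genes past 2-fold, or the 2 most abundant where fewer than 2 passed. Stat2, Irf1, Irf4, Irf5, Irf8, Rnf125, Tlr7, Tlr8, Tlr9, Irak1, Ifitm2, Tcf4, Ccr9 and Runx2 were named after their values were seen. So were Oas1b, Oas1c, Oas1g, Tmem173 and Mavs. Values of some genes of the JAK-STAT and IRF lists are not reported here, though the list medians include them. An entry of the lists, Pyhin1, led to a gene already listed and was left out.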

Additional observations from a re-analysis of the deposited data

How the results depend on the processing

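With 1 library per genotype no replicate could be left out. No paired analysis was possible because each genotype has 1 library. The count of members at least 2-fold lower was 5. It was 8 of 37 with a pseudocount of 0.1 CPM, beside 11.3% of all measured genes. With a pseudocount of 5 CPM it was 3 of 37, beside 5.1%. Without the receptor chains and chemokines it was 3 of 33 (9.09%), close to the 8.63% of all measured genes. On plain ratios, an alternative chosen after seeing the data, it was 9 of 37, beside 11.6%. At 1.5-fold it was 14, with 1 higher, beside 17.2% and 12.9%. For the settings named next, the share of all genes ran from 3.78% with no filter to 8.83% with a filter of 5 CPM. It stayed at 5 under plain CPM, relative log expression and upper quartile factors, totals without the 50 most abundant genes, no filter and a filter of 5 CPM, and was 4 among members with no shared exon. The member median, not computed on plain ratios or for the 1.5-fold limit, stayed below 0 in each of the other settings, from -0.51 with a filter of 5 CPM to -0.14 with plain CPM, where the median of all genes moved from 0.01 to 0.16. The scalings gave Ddx58, Ifit2, Irf7, Irf9 and Usp18 different signs. Members under about 10 CPM rest on few counts, and their intervals are wide.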
